A study of Homo sapiens with 2 samples.

Results

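Antisense RNA genes are named after the gene on the opposite strand, and their intervals were compared here with those of their partners for H3K9me3, the histone mark of constitutive heterochromatin. Members were the intervals of chromosomes 1 to 22 whose symbol ends in -AS and a number and whose partner symbol is an interval of the same chromosome. This gave 382 antisense intervals with 304 partner genes, of 40237 intervals in the table. Another 3 antisense symbols of these chromosomes had no partner interval. The study holds 1 H3K9me3 library, made with the antibody ab8898, and 1 IgG library, both from KBM7 cells, a human leukemia (CML) line with a near-haploid karyotype. Every value below is from the H3K9me3 library, since IgG values were not analysed here, and there is no replicate.

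H3K9me3 is laid down by methyltransferases such as SETDB1 and SUV39H1, is read by HP1 proteins, and marks silenced repeats and gene clusters. Antisense RNAs are transcribed from the strand opposite a gene, often from a start inside it or from a start shared head to head with it. Several are known to act on the gene they overlap, and others serve as hosts of small RNAs.

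The promoters of 6 antisense RNAs are shown because 4 of these RNAs had a peak within 500 bp of the start of their interval in KBM7 cells and 2 did not, and because they differ widely in CG content; they were chosen after the values were seen. Whether peaks cover the bases shown was not measured, since the builds differ. Each line gives the 250 bases before the start in RefSeq on GRCh38.p14, with every CG in capitals. The first 4 are FGF12-AS2 at chr3:192514772-192515021 (plus strand), CHL1-AS2 at chr3:197342-197591 (minus strand), SRGAP3-AS2 at chr3:9192243-9192492 (plus strand) and ZNF32-AS1 at chr10:43643622-43643871 (plus strand). The other 2 are CACNA1C-AS1 at chr12:2691158-2691407 (minus strand) and KCNQ1-AS1 at chr11:2861570-2861819 (minus strand).
FGF12-AS2: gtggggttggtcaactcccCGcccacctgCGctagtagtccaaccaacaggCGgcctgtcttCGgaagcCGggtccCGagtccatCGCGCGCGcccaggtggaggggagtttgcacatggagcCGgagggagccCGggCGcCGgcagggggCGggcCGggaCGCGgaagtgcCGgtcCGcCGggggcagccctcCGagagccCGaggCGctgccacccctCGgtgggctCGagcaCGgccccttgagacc
CHL1-AS2: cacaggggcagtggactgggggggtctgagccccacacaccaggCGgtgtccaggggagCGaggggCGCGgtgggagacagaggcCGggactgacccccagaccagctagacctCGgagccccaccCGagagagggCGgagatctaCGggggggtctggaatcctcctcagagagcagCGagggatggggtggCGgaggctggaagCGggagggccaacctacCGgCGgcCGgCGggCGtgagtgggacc
SRGAP3-AS2: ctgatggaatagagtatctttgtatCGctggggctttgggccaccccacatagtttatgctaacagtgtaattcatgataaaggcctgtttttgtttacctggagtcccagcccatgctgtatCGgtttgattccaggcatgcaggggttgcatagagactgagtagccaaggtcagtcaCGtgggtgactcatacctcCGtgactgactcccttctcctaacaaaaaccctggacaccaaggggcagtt
ZNF32-AS1: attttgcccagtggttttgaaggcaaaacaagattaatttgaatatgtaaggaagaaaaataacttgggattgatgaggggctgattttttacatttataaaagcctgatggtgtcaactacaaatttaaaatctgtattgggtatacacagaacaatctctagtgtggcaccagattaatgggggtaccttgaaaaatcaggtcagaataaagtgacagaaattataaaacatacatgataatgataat
CACNA1C-AS1: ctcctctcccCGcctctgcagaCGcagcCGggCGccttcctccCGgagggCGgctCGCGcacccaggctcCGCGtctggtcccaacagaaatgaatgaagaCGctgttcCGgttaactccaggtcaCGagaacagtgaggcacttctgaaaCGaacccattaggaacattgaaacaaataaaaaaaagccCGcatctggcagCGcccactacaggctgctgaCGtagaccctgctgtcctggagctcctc
KCNQ1-AS1: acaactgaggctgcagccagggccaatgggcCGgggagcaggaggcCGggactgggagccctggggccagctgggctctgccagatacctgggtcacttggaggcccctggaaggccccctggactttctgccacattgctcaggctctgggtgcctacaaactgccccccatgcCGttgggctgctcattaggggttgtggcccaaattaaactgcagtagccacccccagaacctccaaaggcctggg

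Both CG-rich and CG-poor promoters were among those with a peak near the start. FGF12-AS2 and CHL1-AS2 had 27 and 17 CG in these 250 bases, whereas SRGAP3-AS2 had 4 and ZNF32-AS1 had 0. Without a peak near the start, CACNA1C-AS1 had 17 CG and KCNQ1-AS1 had 3. Of the 382 antisense RNAs 212 had a promoter in RefSeq, and the 155 whose RefSeq length lay within 5% of the interval length were compared, since coordinates of GRCh38.p14 and of the files, which use hg19, were not mixed. Over 300 bases (250 before and 50 after the start) these 155 had a median of 4 CG, and 31.6% had 10 or more, against 56.4% of the 35116 promoters in the RefSeq table. CG was counted on 1 strand, because it reads the same on both. The 184 partner promoters matched in the same way had a median of 24 CG. Antisense promoters over a partner start had a median of 19 CG (n = 44), and those inside a partner had 3 (n = 101). The 23 antisense promoters with a peak within 500 bp of the start had a median of 5 CG, and the 132 without one had 4.

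Antisense intervals had scores at about the level of their partners. The score is the number of reads the authors counted in an interval, per kb of its length. It is not scaled to IgG, so it does not separate the mark from background reads. Median peak cover was 0% for antisense intervals and 2.08% for partners, counted per pair. Its median was 44.0 reads per kb over the 382 antisense intervals (25th to 75th percentile 28.7 to 67.0). Over their partners it was 41.8 (29.9 to 58.4). The median log2 ratio of antisense over partner score was 0.06 (quartiles -0.29 and 0.37), and the antisense score was the higher one in 207 pairs and the lower one in 175. In 259 pairs the scores differed by less than 1.5 times. The antisense score was at least 2 times the partner score in 26 pairs and at most 1/2 of it in 28. Across pairs Spearman's correlation between the scores was 0.72 (n = 382), a description only, since the intervals of a pair are neighbours in 1 library and mostly overlap.

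**Figure D1:**
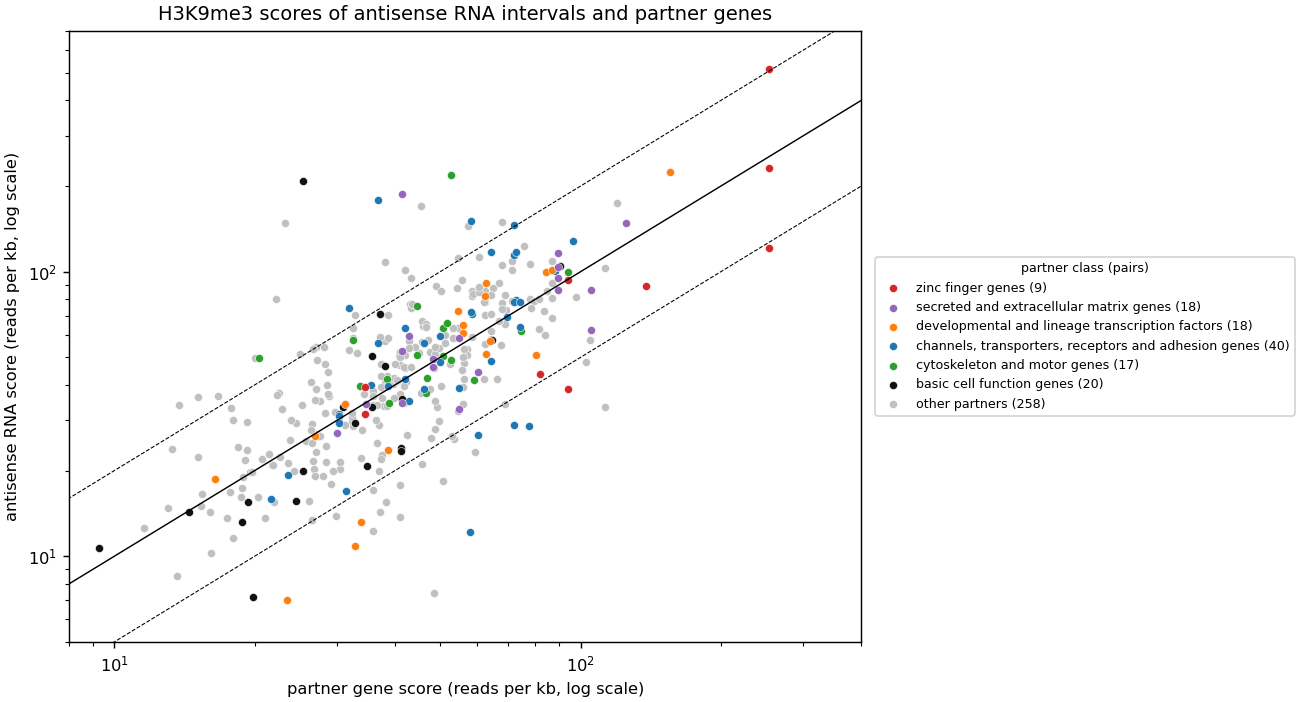
Scores of the 380 antisense intervals with reads (vertical, reads per kb, log scale) against those of their partner genes (horizontal, reads per kb, log scale), colored by class of partner. The solid line marks equal scores and the dashed lines a ratio of 2 and of 1/2; most points lie between the dashed lines, and the highest antisense and partner scores belong to zinc finger partners.

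Most antisense intervals lay inside their partner and so shared its reads. Of the 382, 251 were nested in the partner and 110 overlapped it in part. Another 7 contained the partner and 14 lay apart from it, by at most 2.87 kb. A nested interval made up a median of 2.47% of its partner. With its reads and length taken out of the partner, the median log2 ratio of the 251 nested pairs was 0.08 (quartiles -0.27 and 0.36), the same to 2 decimals as with the whole partner, and Spearman's correlation was 0.73. Among the 215 nested intervals of 1 kb or more, 8 (3.72%) scored at least 2 times their whole partner and 13 (6.05%) at most 1/2 of it. The shares among 3222 other opposite-strand pairs with an inner interval of 1 kb or more were 4.31% and 9.31%. With shorter intervals included, the antisense count was 14 of 251 (5.58%) at 2 times or more, against 31.7% of 5830 other nested opposite-strand pairs, whose inner intervals include very short RNA genes. At 1/2 or less it was 15 (5.98%), against 7.53%. Nested pairs on either strand gave 39.2% and 6.91%. Among partly overlapping pairs the shorter interval scored at least 2 times the longer one in 9 of 110 (8.18%) and at most 1/2 of it in 12 (10.9%), against 5.56% and 13.9% of 3612 other such pairs.

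**Figure D2:**
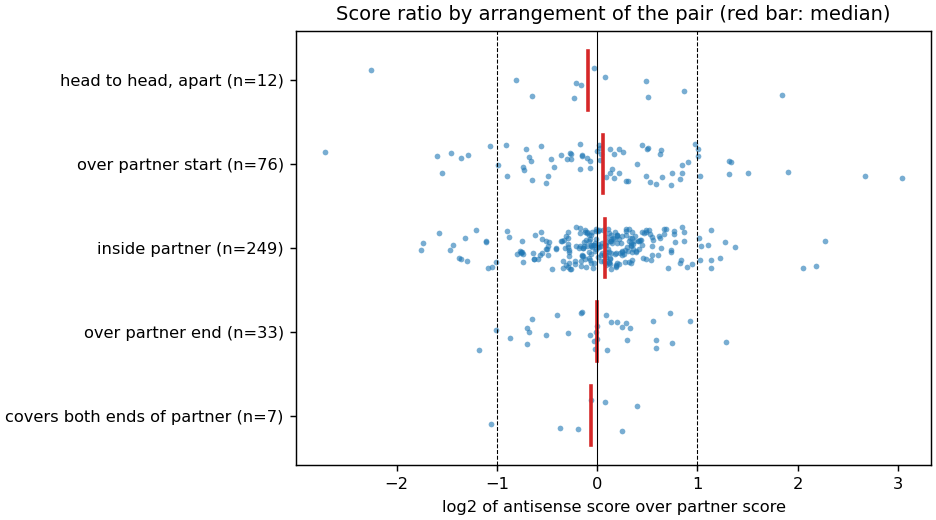
Log2 of antisense over partner score (horizontal) for each pair, by where the antisense interval lies on its partner; red bars are medians and dashed lines mark 2 times and 1/2. All 5 medians lie between -0.10 and 0.08, and the 2 highest ratios are at the partner start. The 2 antisense intervals with 0 reads and the rare arrangements are not drawn.

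Peaks were about as frequent in antisense intervals as in the rest of the table. A peak overlapped 128 of 382 antisense intervals (33.5%, 95% exact binomial interval 28.8 to 38.5), against 33.9% of 38057 other intervals on these chromosomes. By length, the antisense share was the higher one in 7 of 8 length ranges, and its 95% interval held the share of the others in all 8. Over intervals of 1 kb or more it was 123 of 342, against 42.8% of the others, which have a median length of 19.3 kb and the antisense intervals one of 7.28 kb. Partners, which are far longer (median 134 kb over the 382 pairs, against 6.02 kb for the antisense intervals), had a peak in 279 of the pairs (73.0%). Peaks covered on average 8.44% of an antisense interval and 6.71% of its partner. At the start, within 500 bp, 47 antisense intervals (12.3%) had a peak, against 11.4% of other intervals. Of antisense intervals of 3 kb or more, 5 of 250 had 50% or more of their length in peaks, against 3.62% of others, and 9 of the 382 were wholly covered, the longest of 2.08 kb, against 2.64%. Among intervals of 1 kb or more, 34 of 342 (9.94%) scored above 91.9 reads per kb, the 90th percentile of such intervals on these chromosomes, against 10% of others. Above the median of 38.5 reads per kb lay 199 of the 342, against 49.9% of others.

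**Figure D3:**
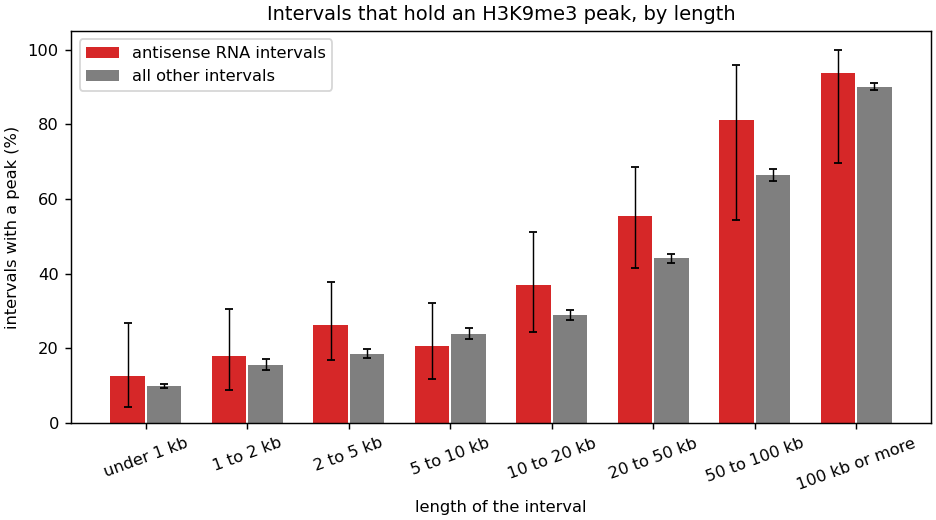
Share of intervals with a peak (vertical, %) by length of the interval (horizontal), for antisense intervals (red) and all other intervals of chromosomes 1 to 22 (grey); error bars are 95% exact binomial intervals and cover counting error only. The share is 12.5% of antisense intervals and 9.82% of others under 1 kb, and 93.8% and 90.2% at 100 kb or more.

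Within nested pairs, peak sharing was fixed by position, whereas intervals that overlapped in part did not always share the same peak. In all 70 nested pairs with a peak in the antisense interval the partner had it too, as nesting requires, and in 134 nested pairs the partner had peaks only elsewhere. Where the intervals overlapped in part, both had a peak in 35 pairs, the antisense interval alone in 11, the partner alone in 25 and neither in 39. Over a partner start both had a peak in 25 pairs, and the shared sequence held one in 15. Over a partner end these counts were 10 and 7. In the rest of these pairs the 2 intervals held separate peaks. Over all pairs the antisense interval alone had a peak in 13, and 10 of these lay over the partner start. The 251 nested pairs cannot be of this kind, and 76 of the remaining pairs lay over a partner start.

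Zinc finger partners had the highest antisense scores of the 7 classes. The median was 89.3 reads per kb over their 9 antisense intervals, which belong to 5 partners, and 93.9 over the partners. Of the 9 intervals, all of 1 kb or more, 8 lay above 38.5 reads per kb, the median of intervals of that length. Among other such intervals 49.9% did. Mean cover was 35.3% for the antisense intervals and 46.7% for the partners. At ZNF32, a small zinc finger gene on chromosome 10, ZNF32-AS1 scored 515 (95% Poisson interval 475 to 558), ZNF32-AS2 231 and ZNF32-AS3 122, against 253 for ZNF32 itself. Both ZNF32-AS1 and ZNF32-AS2 were wholly in peaks and lie inside ZNF32, so they share its reads. ZNF32-AS3, which spans both ends of the gene over 45.9 kb, was covered at 48.4%. ZNF197-AS1 scored 89.3, against 138 for ZNF197, a KRAB zinc finger gene. The antisense intervals ZNF503-AS1 and ZNF503-AS2 differed, at 93.4 and 38.6, beside 93.9 for ZNF503, a developmental repressor. ZNF385D-AS1 and ZNF385D-AS2 scored 39.2 and 31.7 with cover of 1.06% and 0%, beside 34.5 for ZNF385D. ZNF295-AS1 scored 43.8, without a peak, against 82.0 for ZNF295. No zinc finger partner of this class lies on chromosome 19, which held 1 pair, of the class of other partners.

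Antisense intervals of developmental and lineage transcription factors ranged widely in score. The median over these 18 was 54.3 reads per kb, against 56.0 for the partners. A peak lay in 6 of them (33.3%), near the 33.9% of other intervals. ZEB2-AS1 was lowest, at 7.03 on 19 reads, against 23.5 for ZEB2, a repressor of epithelial genes. HOXA11-AS1 scored 10.9 (8.13 to 14.3) and HOXA11, a limb patterning gene, 32.8 (27.3 to 39.2). Neither of these pairs had a peak in either interval, and both ratios were at 1/2 or less. ZEB1-AS1 scored 23.6 against 38.7 for ZEB1, and TP73-AS1 26.4 against 26.9 for TP73, a p53 family member. At MYB, a hematopoietic regulator, MYB-AS1 scored 18.6 on 17 reads and MYB 16.4. The high end held ZIC4-AS1, an interval under 1 kb, at 224 and wholly in a peak, beside 155 for ZIC4, a cerebellar factor. NKX2-1-AS1 scored 101 beside 86.7 for NKX2-1, which specifies thyroid and lung, with cover of 47.4% and 47.3%. DLX6-AS1 scored 99.9 with 31.3% cover, beside 84.3 with 2.75% for DLX6, a homeobox gene of forebrain and jaw.

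Median scores were 58.7 reads per kb for the 18 antisense intervals of secreted and matrix genes and 54.9 for their 10 partners, counted per pair. Mean cover was 17.2% and 14.8%. Their cover rests on partners with several antisense intervals, since with 1 antisense interval per partner it was 8.51%. FGF12, the gene of a neuronal fibroblast growth factor homolog, entered this class by its symbol only. Inside it FGF12-AS2 was wholly in a peak and scored 188 (167 to 210), whereas FGF12-AS3 scored 52.8 and FGF12-AS1 34.5, beside 41.4 for FGF12. GAS6-AS1 scored 148 with 71.5% cover, beside 125 with 50.6% for GAS6, the ligand of the TAM receptor kinases. All 4 EGFLAM intervals scored 86.4 to 116, beside 89.6 for EGFLAM, which encodes a retinal matrix protein.

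Partners classed by symbol as channels, transporters, receptors and adhesion genes are long, with a median length of 539 kb over the 40 pairs. The class is not complete, as the adhesion genes LSAMP and CHL1, given below, fell among the other partners. Scores over the 40 antisense intervals had a median of 56.1, against 52.5 for the partners, and 15 of the 40 had a peak, near the 33.9% of other intervals. Of these pairs 37 had a peak in the partner, and 90.2% of other intervals of 100 kb or more held one. CACNA1C, the pore subunit of an L-type calcium channel, scored 72.1, and its antisense intervals ran from 28.9 in CACNA1C-AS1 to 146 in CACNA1C-AS4, which held no peak. KCND3-AS1, in a potassium channel gene, scored 128 with 78.5% cover, beside 96.2 with 30.6% for KCND3. KCNQ1-AS1 scored 26.6 without a peak, beside 60.2 for KCNQ1, an imprinted potassium channel gene.

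Basic cell function genes were the class with the lowest antisense scores. The median over the 20 was 26.7 reads per kb, against 33.8 for the partners, and 7 were the higher member of their pair. Among those of 1 kb or more, 6 of 19 lay above 38.5 reads per kb, the median of intervals of that length, against 49.9% of others. DDX39B-AS1 was lowest, at 7.19 on 6 reads. HNRNPU-AS1 scored 10.7, beside 9.27 for HNRNPU, a nuclear matrix RNA-binding protein, in the only pair with both intervals on the same strand in the file. SEC62-AS1 scored 14.3, beside 14.4 for SEC62, a translocon component. RAD21-AS1 and TRIM31-AS1, at 208 and 105, stood at the other end. Mean cover of the class was 8.41%, and 5.49% without RAD21-AS1, which lies on chromosome 8. The 17 intervals of cytoskeleton and motor partners had a median of 50.6 against 46.9, with DOCK9-AS1 at 99.8 beside 94.0 for DOCK9, a Cdc42 activator. WDR52-AS1 scored 65.9 beside 51.6 for WDR52. The 260 intervals of the other partners had medians of 41.1 and 40.2.

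Among pairs with 50 reads and 1 kb or more in both intervals, 4 of the 5 highest ratios belonged to antisense intervals at the start of the partner. Of all 382 antisense intervals, 76 lay over a partner start and 12 lay head to head with the partner without overlap. Median log2 ratios were 0.06 and -0.10 for these, against 0.08 inside the partner, so the medians at this position were not higher. Of the 76, 10 (13.2%) scored at least 2 times the partner and 7 (9.21%) at most 1/2 of it. These shares were 5.22% and 6.02% inside the partner, and 6.81% and 7.33% over all 382 pairs. RAD21-AS1, next to the gene of a cohesin subunit, lies on chromosome 8 at 117886663 to 117889123 (hg19) and scored 208 (95% Poisson interval 191 to 227), against 25.4 (23.6 to 27.3) for RAD21, a ratio of 8.22. Peaks covered 77.9% of its sequence outside RAD21 and 0% of the shared sequence, and RAD21 held no peak. KBM7 cells are known to carry an extra chromosome 8, which both intervals share. ZNFX1-AS1, the host gene of snoRNAs also called ZFAS1, lies on chromosome 20 at 47894715 to 47905797 and scored 148 (141 to 155), against 23.3 (22.1 to 24.4) for ZNFX1, a helicase-domain protein of antiviral defence. Its cover was 70.4%, against 2.09% for ZNFX1. Inside it the short intervals SNORD12 and SNORD12B scored 1100.0 and 1011, on 99 and 92 reads, and SNORD12C scored 101 on 9 reads. These 3 are of 0.089 to 0.091 kb, and scores of such short intervals do not compare with those of long ones. Other intervals under 1 kb had a median score of 122, against 38.4 at 1 kb or more. HTT-AS1, head to head with the huntingtin gene, scored 79.9 with 42.1% cover, against 22.2 with 1.60% for HTT. CHL1-AS2 was wholly in a peak over the start of CHL1, a neural adhesion gene, and scored 170 (151 to 192), against 45.5 for CHL1. Both its part outside CHL1 and its shared part were covered at 100%. FGF12-AS2 was the only one of these 5 that lies inside its partner. Among intervals under 1 kb, KCNQ5-AS2 scored 179 without a peak, against 36.8 for KCNQ5, and ARHGEF7-AS1 219, wholly in a peak, against 52.8 for ARHGEF7.

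**Figure D4:**
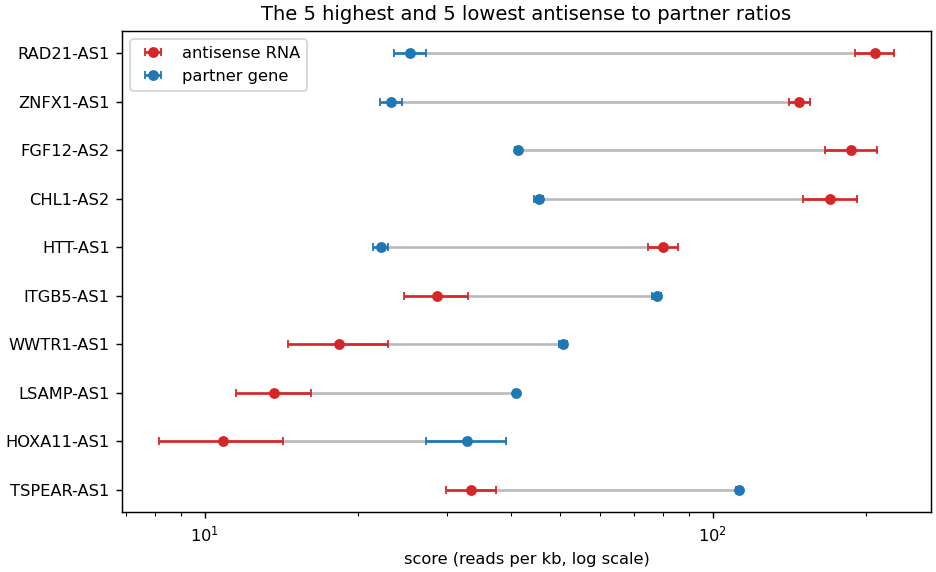
Scores (horizontal, reads per kb, log scale) of the antisense intervals (red) and partner genes (blue) in the 5 pairs with the highest and the 5 with the lowest ratio, among 305 pairs with 50 reads and 1 kb or more in both intervals. Bars are 95% Poisson intervals of the counting error, and those of the 2 members overlap in none of the 10 pairs, from RAD21-AS1 at 208 against 25.4 to TSPEAR-AS1 at 33.5 against 113. The pairs were picked by their ratios, so this separation is no test of them, and members that overlap share reads.

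Of the 5 lowest ratios among pairs with 50 reads and 1 kb or more in both intervals, 4 belonged to antisense intervals inside a partner that held peaks elsewhere. Such a position is common, as 251 of the 382 intervals were nested in their partner, and in 204 of these pairs the partner held a peak. TSPEAR-AS1, on chromosome 21 at 45926690 to 45935738, scored 33.5 (29.8 to 37.5) with 0.420% of it in peaks. Its partner TSPEAR, a gene of ear, tooth and hair development, scored 113 (111 to 114) with 55.0% cover. ITGB5-AS1 scored 28.6 without a peak, against 77.6 with 18.6% cover for ITGB5, an integrin subunit. WWTR1-AS1 scored 18.4 without a peak, against 50.8 with 7.52% cover for WWTR1, the Hippo pathway coactivator TAZ. LSAMP-AS1 scored 13.7 (11.5 to 16.2) without a peak, against 41.0 with 1.45% cover for LSAMP, a neuronal adhesion gene of 2187 kb. HOXA11-AS1, described above, lies over the start of HOXA11, which held no peak. On fewer reads, ST7-AS1 scored 7.41 against 48.6 for ST7, and KCNC4-AS1 12.1 against 58.0 for KCNC4, a potassium channel gene, on 14 reads each.

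Around partner starts with an antisense interval at their head, cover averaged higher on the antisense side, though most of these partners had none on either side. Over 87 such partners, peaks covered 9.34% of the 10 kb upstream and 6.82% of the 10 kb downstream. Upstream was the higher side in 21, downstream in 17, and 49 had none on either side. RAD21, ZNFX1, BOK, HTR3E and HTT had the largest upstream excess, and without these 5 the means were 5.95% and 7.09%. They were picked for that excess after their values were seen, which by itself lowers the upstream mean. No genes of large downstream excess were left out, so these means do not settle which side is higher. Among 2231 other protein-coding genes with an opposite-strand interval over their start, the means were 5.53% and 5.11%. A higher upstream mean was not particular to these groups. Over all 17547 other protein-coding genes the means were 7.44% and 6.88%. Over 177 partners with antisense intervals inside them only or also at the end they were 8.69% and 7.43%. Of these 177, upstream was higher in 38 and downstream in 43. RAD21 had 95.6% upstream and 0% downstream, ZNFX1 78.0% and 0%, and BOK, a Bcl-2 family gene, 66.4% and 11.7%. HTR3E, a serotonin receptor gene, had 49.99% and 0%, although HTR3E-AS1 itself held no peak. The opposite was seen at GNAS, the imprinted gene of the G protein alpha subunit, with 0% upstream and 56.7% downstream. GNAS-AS1 scored 111 with 41.4% cover, against 54.6 with 17.2% for GNAS. Over the 76 antisense intervals that span a partner start, cover averaged 11.3% of the part upstream, 11.6% of the shared part and 4.35% of the rest of the partner. Pair by pair, the part upstream had more cover than the whole partner in 27 pairs, less in 25 and the same in 24. Over the 39 pairs with 1 kb or more on both sides the means were 8.76%, 8.75% and 5.21%.

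**Figure D5:**
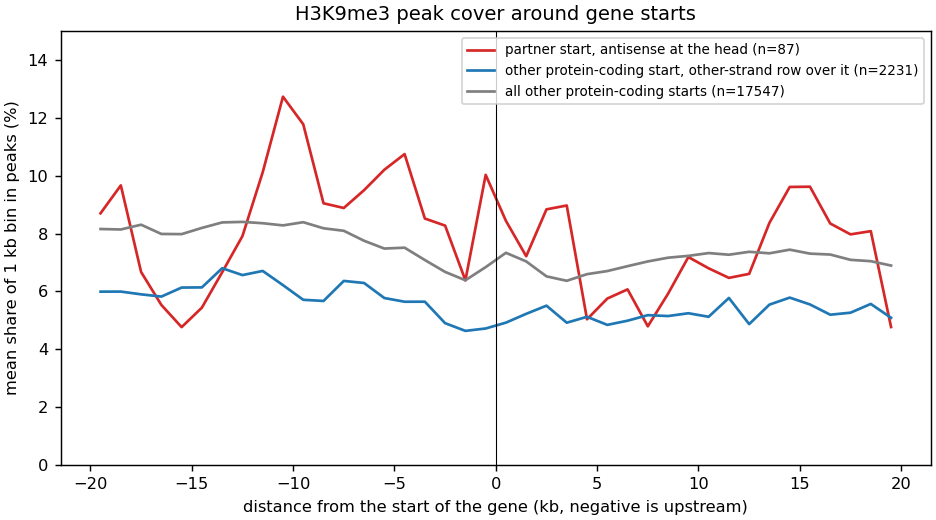
Mean share of each 1 kb bin in peaks (vertical, %) by distance from the gene start (horizontal, kb, negative is upstream), for 87 partners with an antisense interval at their head (red), 2231 other protein-coding genes with an opposite-strand interval over the start (blue) and 17547 other protein-coding genes (grey). The red line reaches 12.7% between 10 and 11 kb upstream and varies from bin to bin, being a mean over few genes.

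Several antisense intervals in 1 partner spanned a range of scores in some genes and hardly any in others. Of the 304 partners 250 had 1 antisense interval, 38 had 2 and 16 had 3 or more. In PCDH9, a protocadherin gene with 0.291% cover, 4 antisense intervals scored between 29.5 and 31.6, beside 30.3 for the gene. In NAALADL2 3 of them scored 29.8 to 31.8, beside 32.3. By contrast those of FGF12 differed by 5.43 times, those of CACNA1C by 5.05 times and those of ZNF32 by 4.24 times between the lowest and the highest. In LSAMP 1 of 4 stood apart, with LSAMP-AS1 at 13.7 and the others at 47.0 to 52.1. SRGAP3, a GTPase-activating gene of neurons, scored 67.9, and its antisense intervals scored 149 in SRGAP3-AS2, which lay wholly in a peak, and 73.8 to 105 in the other 3. NAV2 had 5, at 55.9 to 85.4, beside 62.4, ZBTB20 4 at 21.98 to 47.2, beside 37.3, and EGFLAM 4, given above. All 3 in KIRREL3 and all 3 in SHANK2, a postsynaptic scaffold gene, had a peak, at scores of 78.9 to 109 and 68.7 to 109, beside 71.2 and 87.0. The antisense intervals of GRM7, MAGI2, PRICKLE2 and RBMS3 stayed within 1.5 times of one another.

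The lowest values were those of 2 near-identical copies. C4A-AS1 and C4B-AS1 had 0 reads, which allows up to 0.846 reads per kb at 3 reads, and their partners C4A and C4B, near-identical complement genes, had 35 and 24 reads over the whole gene. The values of these copies are uncertain, since how reads that match both were counted is unknown. Of the 382 antisense intervals 60 had fewer than 50 reads and 40 were shorter than 1 kb. Chromosomes 3 and 13 held 139 and 74 of the pairs, and 77 antisense intervals also overlapped a gene other than their partner, with which reads are shared.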

How the data were processed

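Chromatin of KBM7 cells was crosslinked, sheared and immunoprecipitated, per the labels' protocols. The submitters' processing notes name Bowtie2, MACS and the build hg19. Versions and read filters, and whether IgG served as control, are unknown: they were not given in the sources used here. Deposited by the authors are the read count of each gene interval, not normalised, its length in kb, and a signal (the score), which equals reads per kb to within 3.03e-06 and is scaled neither to depth nor to IgG. The deposited peaks give coordinates only, all on a grid of 150 bp. Reads summed to 78512210 over all intervals, with overlaps counted more than once; the library's depth is unknown.

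Antisense and partner intervals, their overlap and their bases in peaks were computed here (pandas 2.3.3 and numpy 2.4.6 under Python 3.11.15, with scipy 1.17.1 for intervals and matplotlib 3.10.9) and tested on simulated data. A peak counted with 1 bp of overlap. No member had a second interval. Partner classes go by symbol, first match; the eighth, noncoding partners, was empty. Biotypes came from RefSeq (GRCh38.p14) by name. Poisson and exact binomial (Clopper-Pearson) intervals at 95% cover counting error only, and reads are not independent molecules. With 1 library there is no test and no p-value; a ratio of 2 stands in.

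Genes named are the 5 highest and 5 lowest ratios (50 reads and 1 kb or more in both), the 2 highest scores per class (50 reads and 1 kb or more), the 3 most covered of 3 kb or more, 20 fixed antisense RNAs (8 present, of which 1 is not reported here) and partners with 3 or more antisense intervals. Others, mainly further members of the small classes, were named after their values were seen. Members and lists were chosen with earlier results of these data known. Alternatives were the choice of interval, reads, length, fold, shared sequence, chromosomes, peak width and overlap.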

Additional observations from a re-analysis of the deposited data

How the results depend on the processing

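The median log2 ratio of antisense over partner score (0.06) lay between 0.02 and 0.11 under its alternatives, of which leaving out chromosome 3 or 13 was chosen after seeing the data. Of 141 alternative values over all results, 124 stayed close and 17 moved, and none changed the sign of a single result. The order of antisense intervals and partners did turn in the share with a peak, under both minimum covers given below. The order of upstream and downstream cover at partner starts turned without 5 partners, but these were picked for their upstream excess, as given above. The choice of interval for a symbol changed nothing, since no member had a second one. The count of pairs at 1/2 or less was 14 among pairs with 50 reads or more in both intervals, in place of 28. With a fold of 1.5 the counts were 64 higher and 59 lower, and with 3 they were 7 and 7, in place of 26 and 28. Mean cover by class moved to 5.49% in basic cell function genes without chromosome 8 and 60 to 90 Mb of chromosome 15. It moved to 5.93% in cytoskeleton genes (10.8% as reported) and 7.57% in transcription factors (13.1%) with antisense intervals of 1 kb or more, an alternative chosen after seeing the data. In secreted and matrix genes it was 8.51% with 1 antisense interval per partner. The share of antisense intervals with a peak was 17.5% with peaks of 1500 bp or more, 9.95% with 3000 bp or more, 18.6% where 10% of the interval had to be covered and 4.97% where 50% had to be. The share of partners was 58.9%, 30.6%, 18.3% and 2.09% in the same order. Depth is unknown, so that intervals of few reads limit single ratios. No paired analysis was possible because each group is 1 library and IgG values were not analysed here.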

Other observations

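High antisense scores did not always come with a peak. Of the 34 antisense intervals of 1 kb or more above the 90th percentile, 5 held no peak (14.7%), against 18.2% of the 2780 other such intervals. They were CACNA1C-AS4 at 146 reads per kb, HTR2A-AS1 at 118, CACNA1C-AS3 at 115, EGFLAM-AS1 at 104 and OOEP-AS1 at 101, named after their values were seen. HTR2A encodes a serotonin receptor and OOEP an oocyte protein.

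Antisense intervals in partners of 300 kb or more were the higher member of their pair in 76 of 109 cases, with medians of 52.1 and 43.2 reads per kb. In partners of 100 to 300 kb they were so in 51 of 114, with 46.7 and 48.6. In partners of 20 to 100 kb they were so in 50 of 105, and in partners under 20 kb in 30 of 54, so the share did not follow partner length throughout. The 109 intervals belong to 60 partners and are not independent. The length bounds were set after the data were seen, and nothing was tested.

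Antisense intervals of 1 kb or more held a peak in 123 of 342 cases, and intervals of long intergenic RNAs (LINC symbols) of that length in 89 of 185. Median scores were 42.2 reads per kb for antisense and 47.0 for intergenic intervals, and mean cover was 8.19% and 11.2%. Over all intervals of that length other than the antisense ones, 42.8% held a peak. Their median score was 38.4 reads per kb and their mean cover 7.61%. They are longer, with a median of 19.3 kb, against 7.28 kb for antisense and 7.59 kb for intergenic intervals, so the shares with a peak do not compare directly. None of this was tested.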
